A study of Mus musculus with 2 samples.

Results

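Colony-stimulating factor receptors and their ligands were examined in microglia sorted from the brains of sham-operated mice. The 9 genes were chosen by name and function: Csf1r with its ligands Csf1 and Il34, the GM-CSF receptor chains Csf2ra, Csf2rb and Csf2rb2, the G-CSF receptor Csf3r, and the related kinases Flt3 and Kit. All 9 were found among the 53801 gene identifiers of each library, and 8 had at least 10 counts in both. The samples were 2 RNA libraries, sham library 1 and sham library 2, each from the left hemisphere of 1 mouse, and they form a single group. By the series' design text the mice were males of 8 to 10 weeks on a C57BL/6 background, while the study's methods give both sexes and an older range. Their genotype was Cx3cr1(CreER/wt), so CreER was driven from 1 Cx3cr1 allele and the other was intact. They had tamoxifen at 75 mg/kg a day for 4 days, sham surgery 14 days after the first dose, and cell sorting 3 days after surgery. The titles name sham surgery, while the treatment field of both samples reads none. Such mice were the wild-type controls of a conditional knockout. The libraries of the stroke arm were not analysed here, so the data describe levels in 1 condition and hold no comparison between conditions.

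CSF1R is the receptor tyrosine kinase that microglia need to survive, and both CSF1 and IL-34 bind it. In the brain, IL-34 comes mainly from neurons, and CSF1 from glial cells. FLT3 and KIT belong to the same kinase family and are known from haematopoietic progenitors, dendritic cells and mast cells. GM-CSF signals through an alpha chain, CSF2RA, paired with the common beta chain CSF2RB. Mice also have a second beta chain, CSF2RB2, which serves IL-3 alone. The G-CSF receptor, CSF3R, is best known for driving the production of neutrophils.

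The depth was 23381026 gene counts for sham library 1 and 41142609 for sham library 2. Levels are given as CPM, the count per 1000000 counts of the library, and the limit set by a count of 0 (3 counts) was 0.128 and 0.0729 CPM. Intervals are exact at the 95% level and cover counting error only, since amplified reads are not independent molecules. Markers of the labelled cell type were abundant, since 9 microglia genes summed to 32396 CPM in library 1 and to 38984 CPM in library 2. The libraries stood apart in other ways. Genes of immature neutrophils took 1394 and 28124 CPM, those of mature neutrophils 3027 and 31672 CPM, and those of basophils and mast cells 0.257 and 163 CPM, although the gate was meant to leave out cells with Ly6G or CD11c. Ratios between the libraries also moved with transcript length and GC content. The median log2 ratio of library 2 over library 1 was -0.26 over the 13445 genes with at least 10 counts in each. The coefficient of variation between the 2 libraries that edgeR terms biological was 0.477, and it also holds sorting and library preparation. With 1 mouse on each side, differences between the libraries were given no test.

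Csf1r was by far the most abundant of the 9 genes. Library 1 held 348603 counts of it and library 2 held 244146, which are 14910 CPM (interval 14860 to 14959) and 5934 CPM (5911 to 5958), with a mean of 10422 ± 6347 CPM (SD, n = 2). This gene (ENSMUSG00000024621, chromosome 18 of GRCm38, 61105572 to 61132149, plus strand) was the 2nd most abundant by CPM in library 1 and the 21st in library 2, among all genes. Its counts were 1.49% and 0.593% of all counts, and 94.0% and 92.0% of the counts of the 9 genes together. Library 1 was thus 2.51-fold higher by CPM (2.50 to 2.53), a log2 ratio of library 2 over library 1 of -1.33. This ratio was -1.08 with TMM scaling, and its direction turned, to 0.21, after adjustment for GC content and length. Per exon length, where levels of different genes can be compared, Csf1r had 7344 and 2355 TPM, at percentiles 99.9 and 99.7 of the counted genes. TPM is the count divided by the length of all annotated exons of the gene, scaled to 1000000 in each library. In GENCODE M21, whose exons gave the lengths, Csf1r starts at 61100598, ahead of the start in the deposited data, so the annotation release was not the same. Csf2ra (61223957 to 61228429) and Csf2rb (start at 78325752) also had wider bounds in M21 than in the deposited data. The other members had the same bounds in both. The exons of Csf1r share 873 of 5774 bases with Hmgxb3, which lies on the opposite strand. The strand setting of the counting is not given in the sources used here, so reads there could belong to either gene or be left out of the counting. Hmgxb3 had 953 and 267 counts, so the Csf1r count was 366 times and 914 times as large. These ratios do not show how many reads from the shared bases were left out.

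The other kinases of the family, Flt3 and Kit, were near the bottom of the range. Flt3 (ENSMUSG00000042817, chromosome 5, 147330741 to 147400489) was counted 97 times in library 1 and 198 times in library 2, giving 4.15 CPM (3.36 to 5.06) and 4.81 CPM (4.17 to 5.53). Kit (ENSMUSG00000005672, chromosome 5, 75574916 to 75656722) had 23 and 46 counts, or 0.984 CPM (0.624 to 1.48) and 1.12 CPM (0.819 to 1.49). For each of them the intervals of the 2 libraries overlapped. Per exon length, Flt3 had 1.91 and 1.79 TPM, and Kit had 0.314 and 0.288 TPM. The ratio of Flt3 to Kit inside a library was 6.09 and 6.21 on this scale. The markers of cells in which these receptors are usually studied were summed beside them. Dendritic cell genes had 91.4 and 75.9 CPM over 7 genes, mostly from Cd209a. Of the 6 that were counted, 1, Itgax, was more than 2-fold lower in library 2, beside 25.9% of all genes. None was more than 2-fold higher, beside 5.74% of all genes. Progenitor genes had 292 and 284 CPM over 5 genes, nearly all from Cd34. Of the 3 that were counted, 1, Myb (10 and 154 counts), was more than 2-fold higher in library 2, beside 5.74% of all genes. None was more than 2-fold lower, beside 25.9%. Gata2, with 4 and 55 counts, had too few in library 1 to be counted. Of the 7 basophil and mast cell genes, 5 had no counts in library 1. Prss34 and Mcpt8, proteases of basophils, had 4743 and 1484 counts in library 2 and none in library 1. The part of these cells in the Flt3 and Kit levels was not tested.

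The cytokine receptor chains ranged between these extremes. Csf3r (ENSMUSG00000028859, chromosome 4, 126024550 to 126044440) had 12099 and 14548 counts, or 517 CPM (508 to 527) and 354 CPM (348 to 359), a mean of 436 ± 116 CPM (SD, n = 2). With 408 and 225 TPM it ranked next below Csf1r, at percentile 97.2 of the counted genes. Csf3r is also a neutrophil gene, and its level in library 2 was 0.683-fold that in library 1, while the 8 mature neutrophil genes together were 10.5-fold and the 9 immature ones 20.2-fold, with each of these 17 genes more than 2-fold higher in library 2. The per-length ratio of Csf3r to S100a8, an abundant neutrophil protein gene, was 0.0713 in library 1 and 0.00477 in library 2. What share of the Csf3r counts came from cells other than microglia was not tested.

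Csf2ra, the GM-CSF-specific chain, had nearly the same CPM in both libraries. This gene (ENSMUSG00000059326, chromosome 19, 61224402 to 61228418) had 1553 and 2791 counts, or 66.4 CPM (63.2 to 69.8) and 67.8 CPM (65.3 to 70.4). Its partner Csf2rb (ENSMUSG00000071713, chromosome 15, 78325798 to 78353847, plus strand) had 5783 and 2897 counts, or 247 CPM (241 to 254) and 70.4 CPM (67.9 to 73.0). Csf2rb was therefore 3.51-fold higher in library 1 (3.36 to 3.67), while Csf2ra did not differ beyond counting error on the CPM scale. The log2 ratio of library 2 over library 1 for Csf2ra was 0.03 by CPM, 0.28 with TMM scaling and 0.61 after adjustment for GC content and length, and for Csf2rb it was -1.81, -1.56 and -0.28. In per-length terms the beta chain stood above the alpha chain in library 1, with a ratio of 1.47, and below it in library 2, with a ratio of 0.410. In bulk RNA, fewer cells of a type and less RNA per cell cannot be told apart, here and for the other genes. Csf2rb2 (ENSMUSG00000071714, chromosome 15, 78282507 to 78305721, minus strand) had 1547 and 402 counts, or 66.2 CPM (62.9 to 69.5) and 9.77 CPM (8.84 to 10.8), and was 6.77-fold higher in library 1 (6.06 to 7.58). The count of Csf2rb was 3.74 times that of Csf2rb2 in library 1 and 7.21 times in library 2, and per exon length these ratios were 2.43 and 4.69.

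The 2 beta chains are neighbouring copies, so how far reads can be assigned to one or the other bears on these values. Their coding sequences, aligned from GENCODE M21 transcripts, were identical at 2505 of 2631 aligned positions, or 95.2%. Of all 75-base stretches of the longest transcript, 75 bases being the read length, 10.7% of those in Csf2rb occurred in Csf2rb2 and 11.1% of those in Csf2rb2 occurred in Csf2rb. For stretches of 150 bases these shares were 3.47% and 3.59%. The longest run without a difference was 242 bases. Its first 75 bases, which a single read cannot assign, lie in exon 15 of Csf2rb (chr15:78348577-78348651, plus strand) and exon 14 of Csf2rb2 (chr15:78284797-78284871, minus strand) of GRCm38, at bases 2083 to 2157 of both coding sequences. The window where the copies differ most, with 14 of 75 positions unlike, lies in exon 5 of Csf2rb (chr15:78338905-78338979, coding bases 316 to 390) and exon 4 of Csf2rb2 (chr15:78294352-78294426, coding bases 319 to 393). Capitals mark the positions that differ, and the sequences are shown because they set what a read of this length can tell apart.
Shared by Csf2rb and Csf2rb2: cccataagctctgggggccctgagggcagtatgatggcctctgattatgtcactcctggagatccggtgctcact
Csf2rb: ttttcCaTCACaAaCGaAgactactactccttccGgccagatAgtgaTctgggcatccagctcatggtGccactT
Csf2rb2: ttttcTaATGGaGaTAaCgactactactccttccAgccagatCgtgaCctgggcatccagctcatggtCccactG
Most stretches thus told the copies apart, and reads from the shared ones could be lost or misassigned in the counting. Of the other genes, Csf3r had 3.40% of its 75-base stretches in transcripts of 63 other genes, Csf1r had 17.3% in Hmgxb3 alone, Il34 had 0.0581%, and Csf1, Csf2ra, Flt3 and Kit had none.

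Of the 2 ligands of CSF1R, Csf1 was present and Il34 was at the limit of detection. Csf1 (ENSMUSG00000014599, chromosome 3, 107741048 to 107760469) was counted 1018 times in library 1 and 274 times in library 2, giving 43.5 CPM (40.9 to 46.3) and 6.66 CPM (5.89 to 7.50). Library 1 was 6.54-fold higher (5.72 to 7.50), a gap whose interval overlapped that of Csf2rb2. Il34 (ENSMUSG00000031750, chromosome 8, 110741829 to 110805924) was counted 4 times in library 1, at 0.171 CPM (0.0466 to 0.438), and 0 in library 2, which allows up to 0.0729 CPM. No fold was computed for it. Neuron genes were also scarce, with 4.06 and 4.91 CPM over 6 genes. Per exon length, Csf1r was 313 times as abundant as Csf1 in library 1 and 815 times in library 2. Both libraries thus held far more RNA for the receptor than for the ligand.

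**Figure D1:**
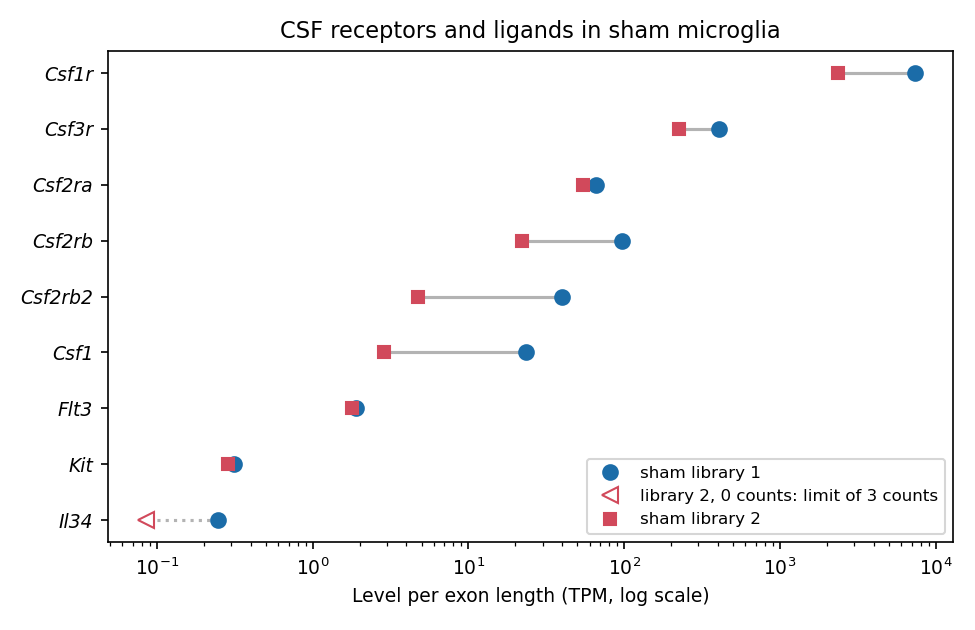
Level per exon length (TPM, log scale) of the 9 genes in sham library 1 (circles) and sham library 2 (squares), joined by a line, in the order of the mean. Csf1r stands at 7344 and 2355 TPM and Kit and Il34 lie below 1 TPM, and the open triangle marks the limit of 3 counts for Il34, which had 0 counts in library 2.

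Ordered by mean TPM, Csf1r (4850 ± 3528, SD, n = 2) came first and Csf3r (316 ± 130) second. Csf2ra (60.0 ± 8.24), Csf2rb (59.4 ± 52.7), Csf2rb2 (22.2 ± 24.7) and Csf1 (13.2 ± 14.5) followed. Flt3 (1.85 ± 0.0883), Kit (0.301 ± 0.0187) and Il34 (0.124 ± 0.176) came last. The ranges of the 2 libraries did not overlap between Csf1r and Csf3r, between Csf3r and Csf2ra, between Csf1 and Flt3, between Flt3 and Kit or between Kit and Il34. They overlapped for 3 neighbouring pairs, Csf2ra with Csf2rb, Csf2rb with Csf2rb2 and Csf2rb2 with Csf1, so the libraries did not separate these neighbours by range. Csf2ra lay wholly above Csf2rb2 and Csf1, and Csf2rb was above Csf2rb2, and Csf2rb2 above Csf1, inside each library. Il34 lay under Kit in both libraries, but in library 1 the values were 0.248 and 0.314 TPM, a gap within the counting error of 4 counts. In the plane of the log2 per-length levels of the 2 libraries, the genes nearest to Csf1r were mt-Nd1, Lgmn and Laptm5, at distances of 0.40, 0.42 and 0.54, where 1 is a 2-fold difference in 1 library. The genes nearest to Csf3r were Rpl10, Rpl8 and Adap2, at 0.04, 0.10 and 0.12. With 2 libraries this likeness describes a pair of levels only.

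Of the 8 counted genes, 4 were more than 2-fold lower in library 2 than in library 1, namely Csf1r, Csf2rb, Csf2rb2 and Csf1, and 0 were more than 2-fold higher. Over all genes counted, 25.9% were more than 2-fold lower and 5.74% more than 2-fold higher (3485 and 772 genes on the CPM scale, 2646 and 1180 with TMM scaling). Relative to the median ratio of all genes, the same 4 members were past 2-fold, beside 19.2% of all genes. The log2 ratios of library 2 over library 1 were -2.76 for Csf2rb2, -2.71 for Csf1, -1.81 for Csf2rb, -1.33 for Csf1r and -0.55 for Csf3r. They were 0.03 for Csf2ra, 0.18 for Kit and 0.21 for Flt3. Between the 10th and 90th percentiles, all genes ran from -1.76 to 0.68, so Csf2rb2 (percentile 1.73), Csf1 (percentile 1.83) and Csf2rb (percentile 9.39) lay outside this range and Csf1r (percentile 17.8) inside it. Border macrophage genes, of cells that also use CSF1R, summed to 703 and 283 CPM over 7 genes. On the CPM scale 4 of them were more than 2-fold lower, beside 25.9% of all genes. The same 4 were so after adjustment for GC content and length, beside 12.7%, a scale on which Csf1r was at 0.21. The part of border macrophages in the Csf1r difference was not tested.

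**Figure D2:**
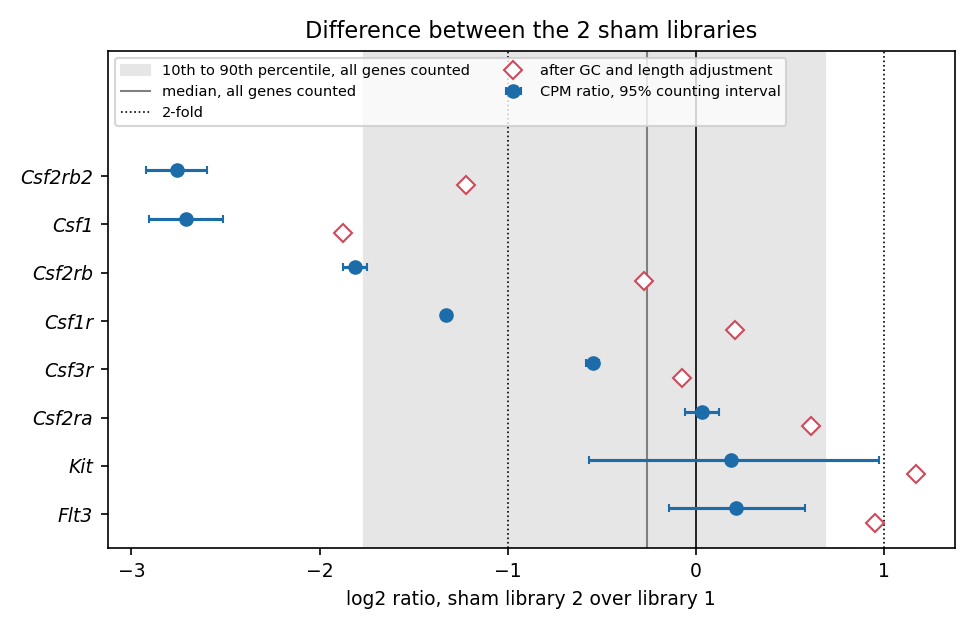
log2 ratio of library 2 over library 1 for the 8 counted genes, on the CPM scale with 95% counting intervals (circles) and after adjustment for GC content and length (diamonds), against the 10th to 90th percentile of all counted genes (grey band), their median and 2-fold (dotted). Csf2rb2 and Csf1 lie below -1 on both scales, while Csf1r moves from -1.33 to 0.21.

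Transcript length and GC content both moved with these ratios. By GC content, the median log2 ratio of all counted genes was -0.10 at 41.0 to 43.5% GC and -0.64 from 57.3% GC upward. Over all counted genes, the median log2 ratio was between -0.05 and 0.17 in each of the 5 bins of shortest transcripts, up to 3106 bases, and was -0.77 for transcripts of 4225 to 4970 bases and -1.05 for those over 6440 bases. Csf1r (4701 bases), Csf2rb (4900 bases) and Csf2rb2 (4740 bases) fell in the same bin of length and of GC content, in which the median of 138 genes was -1.54. Csf2ra, with 2277 bases, had the shortest transcript of the 8. Kit, with 5241 bases, and Flt3, with 3951 bases, stood above the upper quartile of genes of their length. Subtracting the median of the bin, an alternative chosen after seeing the data, gave 0.21 for Csf1r, -0.28 for Csf2rb and -0.07 for Csf3r. It left Csf1 at -1.87 (percentile 2.52) and Csf2rb2 at -1.22 (percentile 8.62), and put Csf2ra at 0.61, Flt3 at 0.95 and Kit, on 23 and 46 counts, at 1.17. On this scale 2 of the 8 genes were more than 2-fold lower in library 2, beside 12.7% of all genes, and 1 was more than 2-fold higher, beside 9.70%. The direction of the Csf1r difference between the libraries therefore depended on this choice, and those of Csf1 and Csf2rb2 did not.

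**Figure D3:**
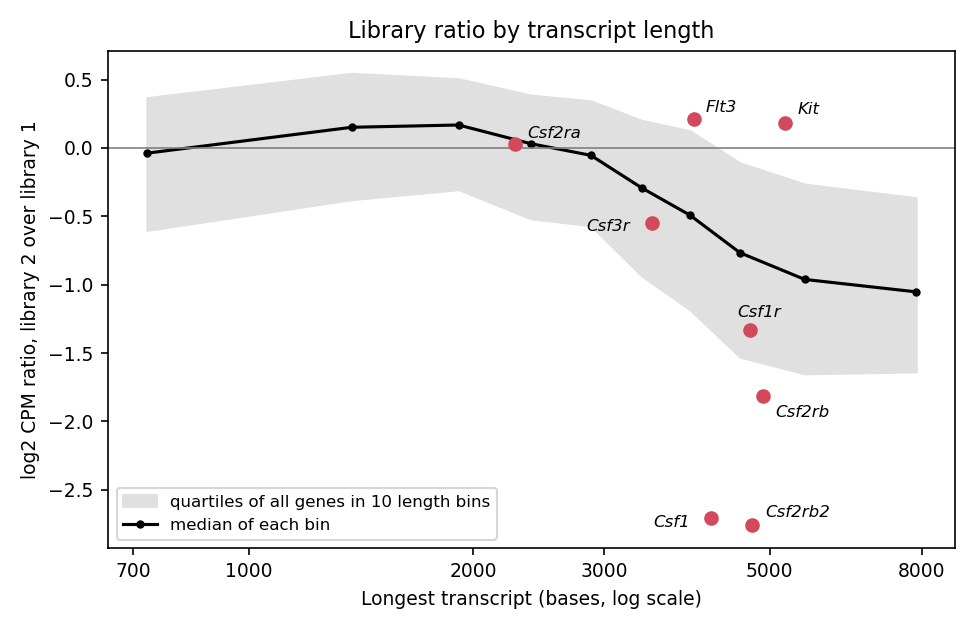
log2 CPM ratio of library 2 over library 1 against the length of the longest transcript (bases, log scale) for the 8 counted genes (red), with the median (black) and quartiles (grey) of all counted genes in 10 bins of length. Csf1r lies within the quartiles of its bin, Csf2rb, Csf2rb2 and Csf1 below them, and Flt3 and Kit above.

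The remaining ligands and receptors of the family were scarce. Of 6 other ligand genes, Csf2 (GM-CSF), Il3 and Il5 had 0 counts in both libraries, and Csf3 (G-CSF) had 0 and 2. Kitl, which encodes KIT ligand, had 236 and 223 counts (3.48 ± 1.95 TPM, SD, n = 2), and Flt3l, which encodes FLT3 ligand, had 52 and 73 (1.34 ± 0.412 TPM). These 2 counted ligands had log2 ratios of -0.90 and -0.33. Per exon length, Csf1 was 4.83 times as abundant as Kitl in library 1 but only 1.38 times in library 2. Il3ra, the alpha chain of the IL-3 receptor, had 26 and 46 counts, Il5ra 3 and 18, and the alternative receptors Ptprz1 (for IL-34) and Sdc1 had 4 and 28, and 4 and 2. The RNA therefore held the receptor chains for GM-CSF and G-CSF, while their ligand genes had at most 2 counts.

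Signalling genes downstream of these receptors were mostly counted, over a wide range of levels. All 21 adaptor and kinase genes were counted, from 1.67 ± 0.954 TPM (SD, n = 2) for Sos1, a Ras exchange factor, to 7715 ± 643 TPM for Tyrobp, the adaptor DAP12. The Src-family kinase Lyn (509 ± 85.4 TPM) was also high, with a log2 ratio of -0.03. Of the 21 genes, 10 were more than 2-fold lower in library 2, namely Src, Fyn, Pik3cd, Grb2, Gab2, Gab1, Syk, Plcg2, Pik3cb and Pik3ca, with log2 ratios from -2.55 to -1.01, beside the 25.9% of all genes. Fgr, a Src-family kinase that neutrophils also carry, was the 1 gene more than 2-fold higher, with a log2 ratio of 1.31, beside 5.74% of all genes. The median of the list was -0.93. All 7 JAK and STAT genes were counted, from Jak2 (5.30 ± 2.83 TPM) to Jak1 (94.7 ± 72.7 TPM), and Tyk2, Jak1 and Stat5a were more than 2-fold lower in library 2 (-2.39, -1.44 and -1.39). After the GC and length adjustment 3 of the 21 and 1 of the 7 were more than 2-fold lower, beside 12.7% of all genes. The JAK kinase used by the beta chains, Jak2, had the lowest mean TPM of the 7, although Stat5a was below it in library 2 (3.21 against 3.30 TPM).

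Negative regulators were led by Ptpn6, the phosphatase SHP-1, with 643 ± 26.3 TPM (SD, n = 2). Inpp5d, the lipid phosphatase SHIP1, had 243 ± 245 TPM, and Socs3, an inhibitor of the G-CSF receptor, had 224 ± 190 TPM. Of 14 genes in this list, which also holds the sheddase Adam17, 13 were counted, and Sla2 had 2 counts in each library. Cblb, Inpp5d, Socs3, Cbl, Sh2b3 and Adam17 were more than 2-fold lower in library 2, with log2 ratios from -2.53 to -1.26. Cish, a STAT5 target with the lowest level of the counted genes (0.763 ± 0.516 TPM), was more than 2-fold higher, from 21 and 130 counts (log2 ratio 1.81). Over the 5 lists, 44 of 52 genes were counted, 19 were more than 2-fold lower in library 2, beside the 25.9% of all genes, and 2 were more than 2-fold higher. Their median log2 ratio was -0.87 on the CPM scale and -0.08 after adjustment for GC content and length, against -0.26 and 0 for all genes. After adjustment 6 were more than 2-fold lower, namely Fyn, Grb2, Src, Tyk2, Cblb and Socs3, and 3 were higher, Fgr, Cish and Sla, beside 12.7% and 9.70% of all genes on that scale. The members' own medians were -0.94 and 0.07.

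**Figure D4:**
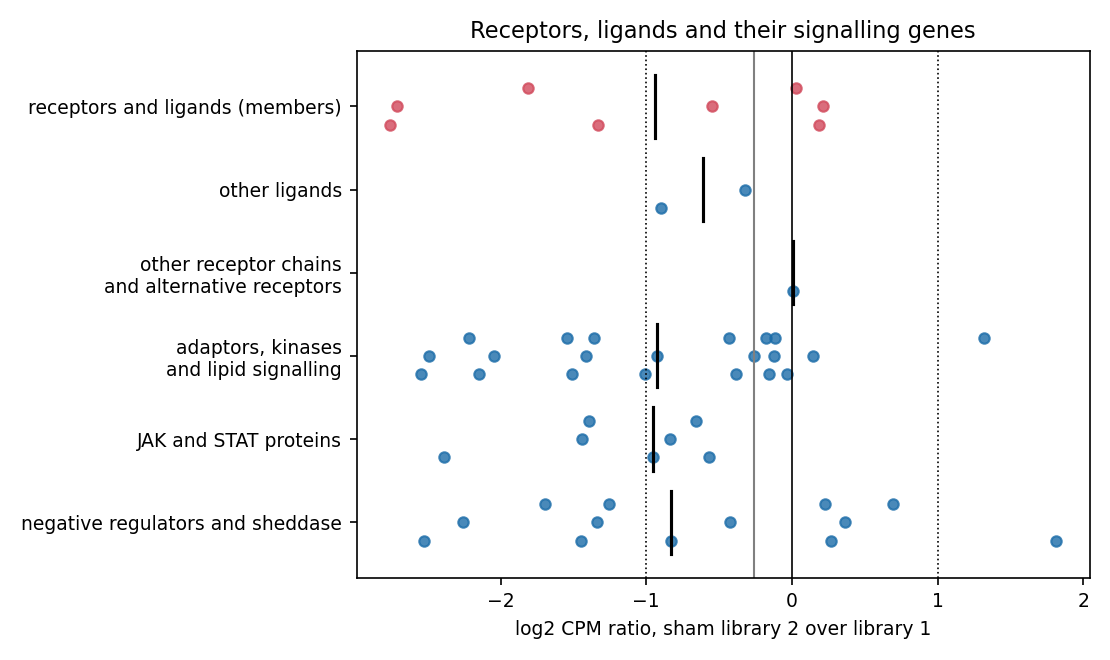
log2 CPM ratio of library 2 over library 1 for the counted receptors and ligands (red) and for the counted genes of 5 signalling lists (blue), each point a gene, with the median of each list (black bar), the median of all genes (grey line) and 2-fold (dotted). The points of the adaptor and kinase list and of the negative regulators spread from about -2.5 to above 0, while all JAK and STAT genes lie below 0. The members' median of -0.94 lies within the range of the 5 lists' medians, from -0.96 to 0.01, where 0.01 is the value of 1 counted gene, Il3ra.

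Markers of further cell types were also present. Sorting antigen genes Itgam, Ptprc, Itgax and Ly6g together had 737 and 726 CPM, but they went opposite ways. Ly6g had 15.4 and 211 CPM, Itgam 290 and 131 CPM, Itgax 14.2 and 3.94 CPM, and Ptprc 418 and 381 CPM. Monocyte genes had 676 and 3337 CPM over 5 genes, of which Chil3 (455 and 2901 CPM) and Ly6c2 (90.3 and 302 CPM) were more than 2-fold higher in library 2 and Ccr2, Plac8 and Vcan were within 2-fold. Astrocyte genes had 232 and 191 CPM over 6, oligodendrocyte genes 101 and 111 CPM over 5, and endothelial genes 18.6 and 15.7 CPM over 5. Their part in the member levels was not tested.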

How the data were processed

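RNA-seq of sorted CD11c-Ly6G-CD11b+CD45low microglia gave 2 sham libraries, grouped by their titles. The authors made cDNA with the SMART-Seq HT Kit and libraries with Nextera XT, aligned paired 75-base reads to GRCm38 (HISAT2) and assigned them to Ensembl genes (HTSeq). The authors deposited whole read counts, not normalized. Versions, annotation release and strand setting are not given in the sources used here. Replicates were not pooled, and 1 library is 1 mouse. The spread between the libraries therefore holds differences between mice, sorting and library preparation, which cannot be told apart.

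The 9 members and all gene lists were chosen with earlier results of these data known. Symbols were matched for 53620 of 53801 identifiers. CPM was the count over all counts on genes. TPM used the union of exons of GENCODE M21 (GRCm38), with the longest transcript as an alternative. A gene was called counted from 10 counts upward in each library, and differences past 2-fold were tallied with no test. Count intervals were exact Poisson intervals and ratio intervals exact binomial (Clopper-Pearson), both at 95%. edgeR 4.0.16 gave TMM factors and the common dispersion with an intercept only, and DESeq2 1.42.0 gave size factors. The GC and length adjustment subtracted the median ratio of genes in the same of 10 bins of each (GC content alone under 20 genes), and steps were tested on simulated data. Read uniqueness was an exact search of all GENCODE M21 transcripts on both strands, and coding sequences were aligned with Biopython 1.88. Other software was matplotlib 3.10.9, pandas 2.3.3, scipy 1.17.1, numpy 2.4.6, Python 3.11.15 and R 4.3.3. Named genes were the members and the pathway genes at either end of each list's levels or past 2-fold. The 3 genes nearest to Csf1r and to Csf3r were also named. Cd209a, Cd34, Myb, Gata2, Prss34, Mcpt8, S100a8, Hmgxb3, Lyn, Sla and Sla2 were added after their values were seen. So were the single marker genes of the sorting and monocyte lists and the scarce ligands and receptors.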

Additional observations from a re-analysis of the deposited data

How the results depend on the processing

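No paired analysis was possible because both libraries belong to 1 group. The 4 members more than 2-fold lower in library 2 stayed 4 under TMM, DESeq2, both other totals, both other count filters, a 1.5-fold threshold and relative to the median. They were 2 at 4-fold and 2 after the GC and length adjustment, under which the log2 ratio of Csf1r reversed to 0.21. The cause of that reversal was not tested. Over all genes, those lower were 924 at 4-fold, 5357 with at least 1 count in each library and 1704 after the adjustment. Those higher were 1180 with TMM, 1240 with DESeq2, 1689 at 1.5-fold, 274 at 4-fold, 1945 with at least 1 count, 302 with at least 100 counts, 1303 after the adjustment and 1205 relative to the median. The coefficient of variation was 0.476 with DESeq2 and 0.550 without the filter. In the order by TPM, 7 of 9 members kept their place with the longest transcript as length, and 7 to 9 with one library left out, Csf2ra and Csf2rb changing places. Depth limits Il34 and Kit most, and 2 mice limit every mean.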
